A study of Mus musculus with 4 samples.

Results

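Keratin genes of the mouse colon epithelium are described here in 2 sorted cell populations. Of 14519 entries in the expression table, 23 carry the symbol of a keratin (Krt and a number), and 6 of these, Krt7, Krt8, Krt18, Krt19, Krt20 and Krt23, were taken by name as the keratins of simple gut epithelium. All 6 were in the table and passed the filter on low values. The samples were 2 libraries of Reg4+ DCS (deep crypt secretory) cells, sorted by a Reg4-dsRed reporter, and 2 of Lgr5+ cells, sorted by an Lgr5-GFP reporter, both from mouse colonic epithelium. The sources used here give neither strain, age nor the number of animals, and a reporter alone defined each group. The design text calls the 2 rounds of sorting biological replicates. Expression is in RPM, the reads of a gene scaled so that every library sums to 1000000, from CEL-seq, which sequences only the 3′ end of each transcript, so values are not divided by gene length.

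Keratins are the intermediate filament proteins of epithelial cells. Each filament is built from pairs of a type I (acidic) and a type II (neutral to basic) chain, so that a cell needs both kinds. In simple epithelia such as the gut Krt8 (type II) and Krt18 (type I) are the founding pair, Krt19 is a further type I chain, Krt7 is a type II chain best known from ducts and glands, and Krt20 is a type I chain that in the gut marks mature cells near the lumen. Filaments are anchored at desmosomes and carry mechanical load, and Krt8 is required for a healthy colon lining in mice.

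The members lie in both keratin clusters of the genome. By the GENCODE M21 annotation of GRCm38, the assembly also called mm10, Krt7 spans chromosome 15 from 101411043 to 101430313 (plus strand), Krt8 from 101996698 to 102004482 (minus strand) and Krt18 from 102028180 to 102032027 (plus strand). Krt18 is a type I gene in the type II cluster, and 23.7 kb separate it from its partner Krt8. The other type I genes are on the minus strand of chromosome 11, Krt20 from 99428403 to 99438150, Krt23 from 99477974 to 99493137 and Krt19 from 100140810 to 100148665. All 6 are annotated as protein coding.

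The promoters of Krt7, Krt23 and Krt20 are shown because these members had the widest spread of levels over the 4 libraries. Each line holds the 250 bases before the start of the gene in RefSeq (GRCm38.p6), read 5′ to 3′ on the strand of the gene. Entries of 5 of the 6 members matched by symbol, all but Krt19. Capitals mark matches, on either strand, to any of 5 motifs. The GC box was searched as GGGCGG. The TATA box was searched as TATAAA. The site of CDX factors was searched as TTTATNG. The E-box of the ATOH1 form was searched as CAGNTG. The AP-1 site was searched as TGANTCA. The Krt7 stretch is chr15:101412153-101412402 on the plus strand, within an intron of a longer coding transcript model and partly within an exon of a noncoding one.
Krt7: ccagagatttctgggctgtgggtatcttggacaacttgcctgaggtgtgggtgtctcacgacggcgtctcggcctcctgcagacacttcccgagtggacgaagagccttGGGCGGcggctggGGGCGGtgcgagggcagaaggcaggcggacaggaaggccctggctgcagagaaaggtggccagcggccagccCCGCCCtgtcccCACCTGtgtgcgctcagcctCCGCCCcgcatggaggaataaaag
The Krt23 stretch is chr11:99493121-99493370 on the minus strand.
Krt23: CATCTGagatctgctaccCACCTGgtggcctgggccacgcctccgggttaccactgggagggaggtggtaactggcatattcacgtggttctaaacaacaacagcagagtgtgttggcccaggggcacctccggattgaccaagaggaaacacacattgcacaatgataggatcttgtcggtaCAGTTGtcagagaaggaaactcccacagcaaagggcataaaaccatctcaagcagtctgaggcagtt
The Krt20 stretch is chr11:99438154-99438403 on the minus strand.
Krt20: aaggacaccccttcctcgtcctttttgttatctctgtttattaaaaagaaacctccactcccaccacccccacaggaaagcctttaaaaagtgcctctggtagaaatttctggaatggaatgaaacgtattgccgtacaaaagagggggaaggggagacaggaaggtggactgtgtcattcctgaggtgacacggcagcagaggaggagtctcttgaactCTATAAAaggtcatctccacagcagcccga
Krt7 held 4 GC boxes, which 32.7% of 32851 promoters of this length have at least once, and 1 E-box match. Krt23 held 3 E-box matches, a form found in 44.8% of promoters. Krt20 held a TATA box (12.4% of promoters) that overlaps a CDX match on the other strand (9.81% of promoters). Krt8 and Krt18 each held 1 E-box match. AP-1 matches, found in 6.75% of promoters, were in none of the 5 stretches. These matches describe letters and not binding.

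Depth and identity of the libraries were as follows. The Lgr5+ columns correspond to 5205723 and 7955340 reads, and each Reg4+ DCS column has the form of a mean of 2 parts with 1890960 to 5523304 reads. Lgr5 was at 0.989 and 3.13 RPM after the Reg4 sort, against 46.5 and 48.8 RPM after the Lgr5 sort, and Reg4 at 6187 and 5899 against 796 and 363 RPM. The epithelial markers Epcam, Cdh1, Vil1, Cdx1 and Cdx2 were above 0 in all 4 libraries, though not all at a like level. Cdx2 was at 50.4 and 41.1 RPM in Reg4+ DCS and at 208 and 115 RPM in Lgr5+ libraries (limma adjusted p = 0.0049). The other 4 did not pass that test. Tuft cell markers summed to 14.4 and 18.3 RPM (Reg4+ DCS) and to 1342 and 404 RPM (Lgr5+), with 7 of 12 at 0 in both Reg4+ DCS libraries. Of the Reg4+ DCS sums Ptpn6 alone gave 10.6 and 14.0 RPM, and the next highest was Ltc4s at 1.42 and 2.35 RPM. Leukocyte markers (6 measured, 5 of them at 0 in both Reg4+ DCS libraries) summed to 0.0905 and 0.166 against 45.9 and 12.9 RPM. Of the Lgr5+ sums Ptprc alone gave 40.1 and 9.55 RPM, and no other leukocyte marker was above 2.11 RPM. Stromal markers summed to at most 3.07 RPM in any library. Goblet cell markers were present in the Lgr5+ pair too, at 6407 and 2478 RPM in sum.

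Between the populations, 1 of the 6 keratins was higher in Reg4+ DCS cells (Krt7), 1 was higher in Lgr5+ cells (Krt23), and Krt8, Krt18, Krt19 and Krt20 did not pass the test. Of all 10183 genes tested with limma, 7.18% passed with a higher level in Reg4+ DCS cells and 26.9% with a higher level in Lgr5+ cells, so that 2 calls among 6 (background 34.1% in either direction) are no more than the table as a whole gives. The libraries of the 2 populations did not overlap for 2 members, Krt7 and Krt23, against 72.3% of tested genes (16.1% with Reg4+ DCS cells higher, as Krt7, and 56.2% with Lgr5+ cells higher, as Krt23). Fold changes are given as Reg4+ DCS minus Lgr5+ on log2(RPM + 1), a scale on which the change of low genes is understated. Their median over all tested genes was -0.47, and 0.02 after median-of-ratios scaling, and the share of calls that were higher in Lgr5+ cells was 79.0% and 44.9%, respectively. RPM is relative to all reads of a library, and the goblet markers alone take 210619 and 139466 of each 1000000 in the Reg4+ DCS pair. In libraries of sorted pools, fewer cells of a kind and less RNA per cell cannot be told apart.

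**Figure D1:**
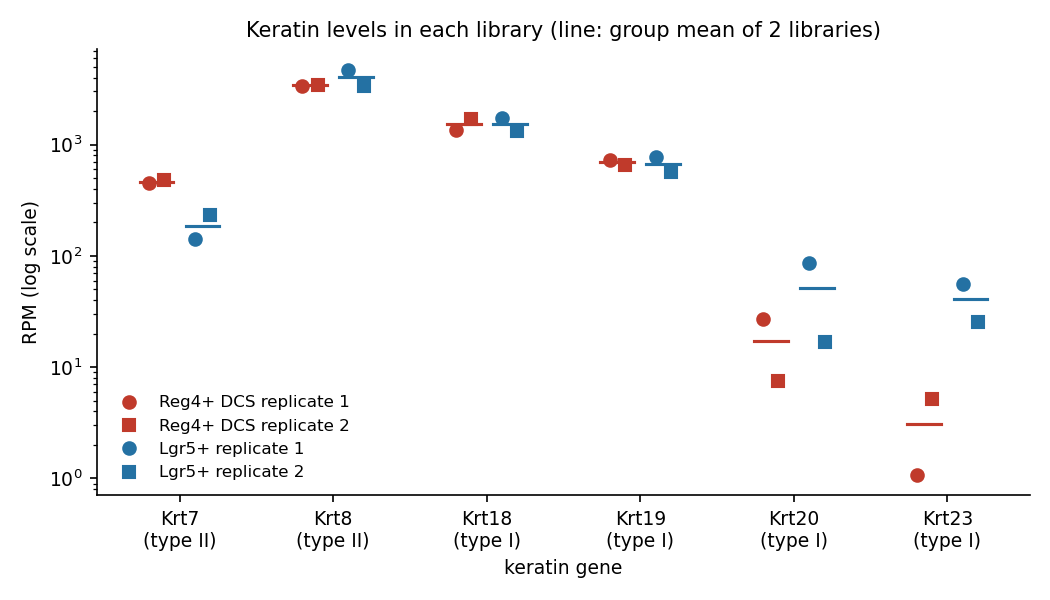
RPM of the 6 keratins (log scale) in each of the 4 libraries, with Reg4+ DCS in red, Lgr5+ in blue, circles for replicate 1, squares for replicate 2 and a line at each group mean. Krt8, Krt18 and Krt19 sit together in all libraries, Krt7 is higher in both red symbols, and Krt23 in both blue ones.

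Krt8, Krt18 and Krt19 made up the bulk of the keratin RNA in both populations and were nearly level between them. Krt8, the main type II chain, was at 3348 and 3447 RPM in the Reg4+ DCS pair and at 4725 and 3337 RPM in the Lgr5+ pair. It ranked 24th and 25th among all entries in the Reg4+ DCS pair and 10th and 22nd in the Lgr5+ pair. The highest and the lowest value both came from Lgr5+ libraries, so the groups overlapped. The log2 fold change was -0.23 (SE 0.30, limma 95% interval -0.91 to 0.46, adjusted p = 0.572), and its sign turned under median-of-ratios scaling (0.28) and by edgeR (0.23), where it was likewise not called.

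Krt18, the type I partner of Krt8, was at 1364 and 1690.5 RPM in Reg4+ DCS and 1717 and 1330.3 RPM in Lgr5+ libraries. Here too the Lgr5+ libraries held both the highest and the lowest value. The log2 fold change was 0.01 (SE 0.27, interval -0.61 to 0.62, limma adjusted p = 0.986). Krt19, which lacks the tail domain of other keratins, was at 727 and 655 RPM against 768 and 564 RPM, with a log2 fold change of 0.07 (SE 0.25, interval -0.50 to 0.64, limma adjusted p = 0.851). Its Reg4+ DCS values lay between those of the Lgr5+ libraries. None of these intervals shows that the populations are alike. All 3 lay above the median of tested genes: 63.3% of tested genes had a lower log2 fold change than Krt8, 74.0% than Krt18 and 76.5% than Krt19. Under median-of-ratios scaling Krt18 stood at 0.52 and Krt19 at 0.58, neither called (limma adjusted p = 0.197 and 0.144).

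Krt7 was higher in Reg4+ DCS cells. Its level was 449 and 477 RPM in the Reg4+ DCS pair and 141 and 232 RPM in the Lgr5+ pair, so that the lowest Reg4+ DCS value lay well above the highest Lgr5+ value. Group means were 463 ± 19.5 and 187 ± 64.1 RPM (SD, n = 2 each), a 2.48-fold difference. The log2 fold change was 1.35 (SE 0.28, interval 0.71 to 1.98, limma adjusted p = 0.00834), higher than that of 96.1% of tested genes. It rested on 3122 and 2612 reads (Reg4+ DCS) and 736 and 1846 reads (Lgr5+). Krt7 ranked 270th and 267th among all entries in Reg4+ DCS libraries and 1118th and 584th in Lgr5+ libraries. Without either Reg4+ DCS library the call was lost at a similar fold (adjusted p = 0.0593 without replicate 1 and 0.0511 without replicate 2), and the fold was 3.28 without Lgr5+ replicate 2 and 2.00 without Lgr5+ replicate 1. The Lgr5+ library with less Krt7 was replicate 1, which also had more goblet marker RNA than replicate 2 (6407 against 2478 RPM). Whether goblet cells carried any of the Krt7 RNA in the Lgr5+ pair was not tested.

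Krt23, a type I keratin, was higher in Lgr5+ cells. It was at 1.07 and 5.16 RPM in the Reg4+ DCS pair and at 56.3 and 25.3 RPM in the Lgr5+ pair. Both Lgr5+ values were above both Reg4+ DCS values, and the libraries of each population differed among themselves by 4.81-fold (Reg4+ DCS, replicate 2 higher) and 2.23-fold (Lgr5+, replicate 1 higher). The means were 40.8 ± 21.9 against 3.11 ± 2.89 RPM (SD, n = 2 each), 13.1-fold apart, and 7.91-fold without Reg4+ DCS replicate 1 but 38.0-fold without Reg4+ DCS replicate 2. It was 8.11-fold without Lgr5+ replicate 1 and 18.1-fold without Lgr5+ replicate 2. The log2 fold change was -3.44 (SE 0.56, interval -4.74 to -2.15, limma adjusted p = 0.00335), and 1.33% of tested genes had a lower one. The low side rested on few reads, 8 and 28 in the Reg4+ DCS pair against 293 and 201 in the Lgr5+ pair. The call held under all 11 alternatives of processing and left-out libraries (adjusted p at most 0.0267).

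**Figure D2:**
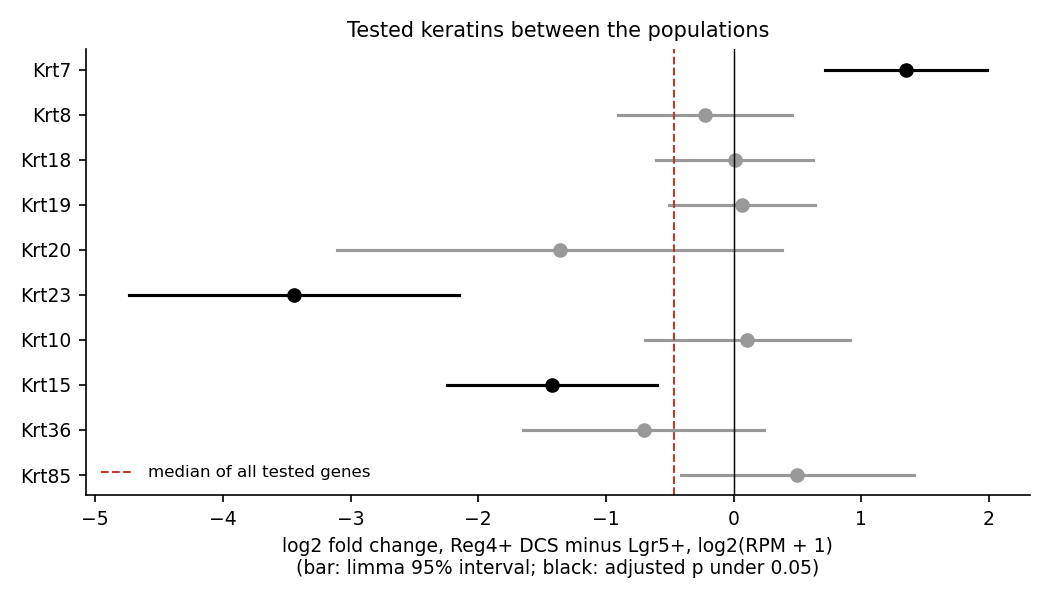
Log2 fold change between the populations (Reg4+ DCS minus Lgr5+, on log2(RPM + 1)) for the 6 keratins and the 4 other keratins that were tested, with limma 95% intervals; black marks an adjusted p under 0.05 and the dashed line the median of all tested genes. Krt7 is the called gene to the right of 0, Krt23 and Krt15 are those to the left, and the interval of Krt20 is the widest.

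Krt20, the keratin of mature gut cells, did not pass the test, and its value moved with the library left out. It was at 27.2 and 7.43 RPM in the Reg4+ DCS pair and at 86.3 and 17.0 RPM in the Lgr5+ pair, so Reg4+ DCS replicate 1 was above Lgr5+ replicate 2 and the groups overlapped. In both populations replicate 1 was higher than replicate 2, by 3.65-fold in Reg4+ DCS and by 5.08-fold in Lgr5+ cells. The means were 17.3 ± 13.9 and 51.6 ± 49.0 RPM (SD, n = 2 each). The log2 fold change was -1.36 (SE 0.76, interval -3.10 to 0.38, limma adjusted p = 0.190). Without Lgr5+ replicate 2 it was -2.50, and without Lgr5+ replicate 1 it was -0.22. Without Reg4+ DCS replicate 1 it was -2.23, and without Reg4+ DCS replicate 2 it was -0.49. A fit without 1 library takes the spread of Krt20 from the remaining pair alone, so only the fold changes are given here.

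Markers of surface colonocytes, the absorptive cells in which Krt20 is known, moved with Krt20 within the Lgr5+ pair. All 15 measured markers of that list were higher in Lgr5+ replicate 1 than in replicate 2, where 53.0% of all tested genes were, and 10 of 15 were higher in Reg4+ DCS replicate 1, where 25.8% of all tested genes were. Summed, they gave 2902 and 2001 RPM in the Reg4+ DCS pair and 2884 and 805 RPM in the Lgr5+ pair, and none of them was at 0 in both libraries of a population. Car4, a carbonic anhydrase of the surface, was at 7.71 and 4.27 RPM against 90.3 and 8.42 RPM. Slc26a3, the chloride exchanger of absorptive cells, was at 17.7 and 8.67 RPM against 139.8 and 38.6 RPM, and Aqp8, a water channel, at 7.96 and 4.12 against 65.3 and 9.55 RPM. Car4, Slc26a3 and Aqp8 were picked with the data already known. In each of them Lgr5+ replicate 1 was the highest library and Reg4+ DCS replicate 2 the lowest, as for Krt20. Ceacam20, Emp1, Fabp2 and Slc37a2 had this order too. Slightly more of the 15 measured markers lacked it than had it, with Guca2a and Ceacam1 among those lacking it. The middle libraries differed from Krt20 in all of those with the order but Ceacam20. In Car4, Slc26a3, Aqp8, Emp1, Fabp2 and Slc37a2 Lgr5+ replicate 2 was above Reg4+ DCS replicate 1. In Krt20 it was below (17.0 against 27.2 RPM), as in Ceacam20 (1.63 against 2.97 RPM), which did not pass the filter. The list as a whole was mixed between the populations. Of 13 tested, 4 were called higher in Lgr5+ cells, 1 higher in Reg4+ DCS cells and 8 did not pass. These shares are near those of all tested genes, 26.9% and 7.18%. Of the 13, 2 were under 5 RPM in both Reg4+ DCS libraries and entered the test through the Lgr5+ libraries alone. Both are among the 4 called higher in Lgr5+ cells. The one higher in Reg4+ DCS cells was Guca2a, the hormone guanylin, at 338.6 and 505 RPM against 211 and 67.5 RPM (limma adjusted p = 0.0236). Ceacam1, an adhesion molecule and the most abundant of the list in Reg4+ DCS replicate 1, was at 1273 and 592 RPM against 748 and 132 RPM and was not called. Their part in the Krt20 values was not tested.

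Beside Krt23 stood the tuft cell markers, of which 10 of 12 were tested. All 10 were called higher in Lgr5+ cells (26.9% of all tested genes were), but 9 of them were under 5 RPM in both Reg4+ DCS libraries and so entered the test through the Lgr5+ libraries alone, which leaves their direction no support from the count. All 12 were higher in Lgr5+ replicate 1 than in replicate 2, as Krt23 was, where 53.0% of all tested genes were. This order is not particular to tuft markers. All 15 surface colonocyte markers had it too, as did Krt8, Krt18, Krt19 and Krt20, but not Krt7. Dclk1, a kinase that marks tuft cells, was at 0.793 and 0.409 RPM (Reg4+ DCS) against 286 and 83.2 RPM (Lgr5+), and Pou2f3, their master regulator, was at 0 in each Reg4+ DCS library and stood at 26.3 and 9.30 RPM in the Lgr5+ pair. Of 7 stem cell markers, 6 were called higher in Lgr5+ cells, by 3.91-fold (Rgmb) to 44.5-fold (Smoc2). Lgr5 is among the 6, and its direction was set by the sort on its reporter. Lgr5 and Smoc2 are among the 3 of the 7 that entered the test through the Lgr5+ libraries alone. The 7 markers summed to 948 and 1128 RPM in the Lgr5+ pair and to 256 and 437 RPM in the Reg4+ DCS pair. Of the Reg4+ DCS sums Slc12a2, an ion transporter that was not called, gave 218 and 369 RPM. Enteroendocrine markers summed to 130 and 63.1 RPM against 37.7 and 52.1 RPM. Whether any of these cells carried the Krt23 RNA was not tested.

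**Figure D3:**
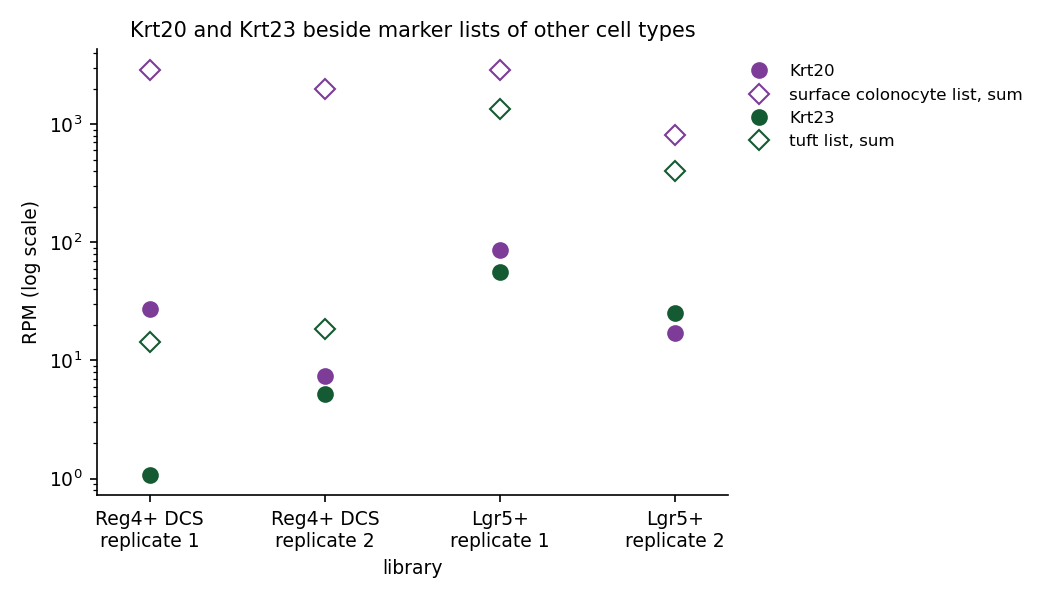
RPM (log scale) in each library of Krt20 and Krt23 (filled circles) and the summed RPM of the surface colonocyte and tuft cell marker lists (open diamonds, in the colour of the keratin beside which they are described). Within the Lgr5+ pair all 4 values are higher in replicate 1, and the tuft sum and Krt23 are low in both Reg4+ DCS libraries.

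The Reg4+ DCS columns could be separated into 2 parts each, because each value is a sum of whole reads at 2 step sizes. In replicate 1 the parts gave 392 and 507 RPM for Krt7, and in replicate 2 they gave 501 and 453 RPM, all above both Lgr5+ libraries. For Krt20 the parts were 27.9 and 26.4 RPM in replicate 1 and 8.32 and 6.55 RPM in replicate 2, so that the difference between replicates was far larger than that between parts. Krt23 was at 1.09 and 1.06 RPM in the parts of replicate 1 and at 4.99 and 5.32 RPM in those of replicate 2. Krt19 varied from 540.1 to 794 RPM over the 4 parts, beyond the Lgr5+ libraries on both sides, and Krt18 was at 1165 RPM in one part of replicate 1, below both Lgr5+ libraries. The separation had a single solution for every member except Krt8 and Krt18 in replicate 2, for which 3 splits were possible. The sources used here do not say what the parts were, and they were not treated as replicates.

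As shares of the summed keratin RPM, which do not depend on how a library is scaled, the make-up was similar in outline. Krt8, Krt18 and Krt19 together were 91.9% and 92.2% of the sum in the Reg4+ DCS pair and at most 96.2% (replicate 1) in the Lgr5+ pair, where both values were higher. The sum of all 6 was 5917 and 6281 RPM against 7494 and 5506 RPM, or 0.592% and 0.628% against 0.749% and 0.551% of all reads, with the Lgr5+ libraries on both sides of the Reg4+ DCS ones. Krt7 formed 11.8% and 12.2% of type II keratin RNA in Reg4+ DCS cells and 2.91% and 6.50% in Lgr5+ cells. Among type I chains Krt18 held 64.4% and 71.7% against 65.3% and 68.7%, and Krt19 held 34.3% and 27.8% against 29.2% and 29.1%. Krt20 and Krt23 together were minor in every library, with Krt20 at most 3.28% and Krt23 at most 2.14% of type I RNA, both in Lgr5+ replicate 1.

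The balance of the chain types was close in the 2 populations. The ratio of summed type II (Krt7 and Krt8) to summed type I RPM was 1.79 and 1.66 in Reg4+ DCS libraries and 1.85 and 1.84 in Lgr5+ libraries. Both Reg4+ DCS values were lower, by 0.10 on the log2 scale, and an exact two-sided permutation test gave p = 0.333, the smallest p that 2 libraries against 2 allow. The ratio of Krt8 to Krt18 was 2.45 and 2.04 against 2.75 and 2.51, also lower in both Reg4+ DCS libraries (exact permutation p = 0.333, the same limit). The ratio of Krt7 to Krt8 was 0.134 and 0.138 against 0.0299 and 0.0695 (exact permutation p = 0.333). Leaving Krt8 out of the sums left Krt7 as the whole of type II and turned the type II to type I difference to 1.37 on the log2 scale. Ratios between genes compare 3′ reads, and the efficiency with which each 3′ end was captured is unknown.

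**Figure D4:**
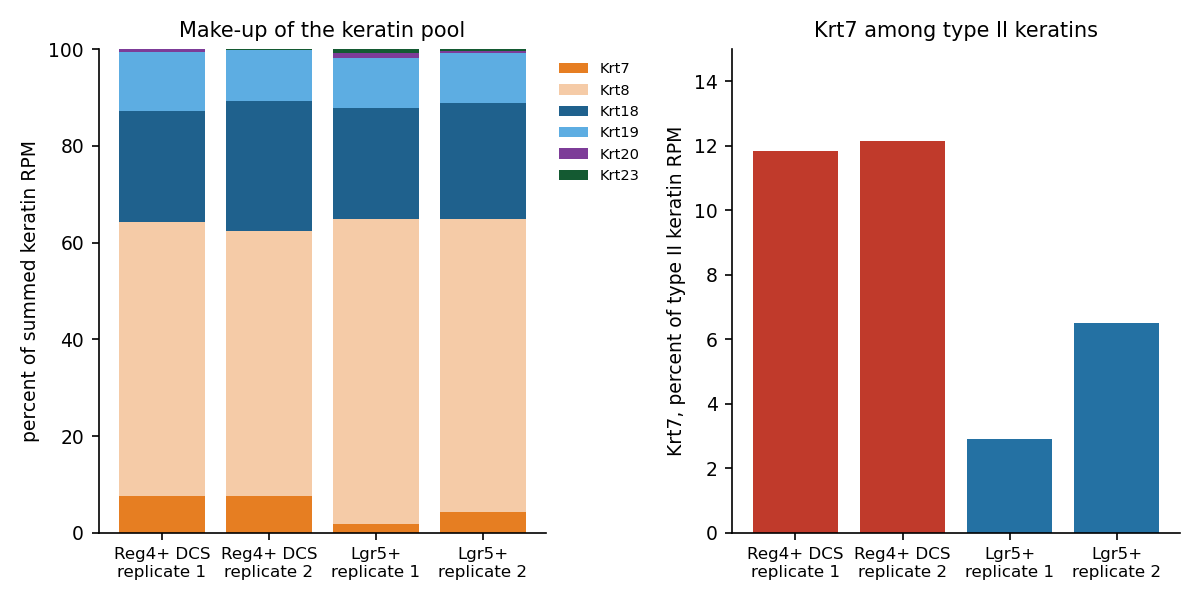
Left, the percent of summed keratin RPM held by each of the 6 keratins in each library; right, Krt7 as a percent of type II keratin RPM (Krt7 plus Krt8), with Reg4+ DCS in red and Lgr5+ in blue. Krt8 is the largest part of every bar on the left, and Krt7 is near 12% of type II RNA in both Reg4+ DCS libraries and at most 6.50% in the Lgr5+ pair.

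Of the 17 other keratins in the table, 13 were under 5 RPM in every library, and the highest value of any was 20.5 RPM (Krt85 in Reg4+ DCS replicate 2). The stratified epithelium keratins Krt4, Krt13, Krt14 and Krt17 were at most 1.54 RPM. Of the 17, 7 had the value 0 throughout the Reg4+ DCS pair and were above 0 in both Lgr5+ libraries, a pattern shared by 11.3% of all entries and by 40.4% of the 3696 entries under 5 RPM in every library. The 4 that passed the filter were Krt10, Krt15, Krt36 and Krt85. Krt15, a keratin of basal cells that also marks a set of crypt progenitors, was at 1.98 and 1.36 RPM in the Reg4+ DCS pair, against 5.19 and 7.16 RPM in Lgr5+ libraries (log2 fold change -1.42, SE 0.36, limma adjusted p = 0.0186). It passed the filter through the Lgr5+ libraries alone. Median-of-ratios scaling (adjusted p = 0.0723), edgeR (0.0963) and leaving out either Reg4+ DCS library (0.0661 and 0.0700) ended its call, and leaving out an Lgr5+ library left it below the filter. Krt10 (log2 fold change 0.11), Krt36 (-0.70) and Krt85 (0.50), the latter 2 known from hair and nail, were not called (limma adjusted p = 0.829, 0.209 and 0.349).

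The proteins that tie keratin filaments to desmosomes and the cell cortex were measured for 14 of 14 listed genes. None was called higher in Reg4+ DCS cells (at an unadjusted p under 0.05 and by edgeR the count was also 0), 3 were called higher in Lgr5+ cells, and 11 did not pass, 10 of them with a negative log2 fold change. The share of 3 in 14 is below the 26.9% that all tested genes gave in that direction. The median was -0.60, against -0.47 over all tested genes. Evpl, envoplakin, was at 6.33 and 9.90 RPM in Reg4+ DCS and 24.2 and 22.9 RPM in Lgr5+ libraries (2.90-fold, limma adjusted p = 0.0109), a call lost without Reg4+ DCS replicate 1 (0.0631). Dsc2, a desmosomal cadherin, was at 41.0 and 42.2 against 108 and 81.7 RPM (2.28-fold, limma adjusted p = 0.00977), which did not hold by edgeR, with median-of-ratios scaling or without Reg4+ DCS replicate 1. Eppk1, epiplakin, a keratin binding plakin, was at 59.7 and 91.3 against 238 and 114 RPM (2.33-fold, limma adjusted p = 0.0454), and its call was lost under 7 of 11 alternatives. Dsp, desmoplakin, the main link of keratins to desmosomes, was at 285 and 255 against 470 and 344 RPM and did not pass (limma adjusted p = 0.0982).

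Of other intermediate filament genes, 8 were in the table and 3 were tested, all lamins of the nuclear envelope. Lmnb1 was at 23.1 and 21.7 RPM in Reg4+ DCS and 84.5 and 141.5 RPM in Lgr5+ libraries, 5.05-fold higher in Lgr5+ cells (limma adjusted p = 0.00133), and held its call under 11 of 11 alternatives. Lmnb2 was 2.03-fold higher in Lgr5+ cells (limma adjusted p = 0.0112), which did not hold with median-of-ratios scaling (0.126) or without Reg4+ DCS replicate 1 (0.0569). Lmna did not pass, at 376 and 397 against 529 and 519 RPM. Vim, the filament of mesenchymal cells, was below the filter, at 0.264 and 0.614 against 2.50 and 3.02 RPM.

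Genes whose proteins bind, phosphorylate or cleave keratins were tested for 17 of 18. By limma 3 were higher in Lgr5+ cells and 0 in Reg4+ DCS cells, and 14 did not pass, with a median of -0.41. The share of 3 in 17 is below the 26.9% of all tested genes. Under median-of-ratios scaling 1 was higher in Lgr5+ cells and 2 in Reg4+ DCS cells. The balance of all 10183 tested genes turned in the same way under that scaling, to 1297 higher in Lgr5+ cells and 1591 in Reg4+ DCS cells. The turn is therefore not particular to this list. Fbf1, a keratin binding protein of junctions and centrosomes, was at 5.81 and 7.49 RPM in Reg4+ DCS and 21.3 and 27.7 RPM in Lgr5+ libraries (3.68-fold, limma adjusted p = 0.00487), and held under 11 of 11 alternatives. Tchp, trichoplein, which binds Krt8 and Krt18, was 2.30-fold higher in Lgr5+ cells (limma adjusted p = 0.0146) and lost its call under 4 of 11, and Ywhae, a 14-3-3 protein of a family that binds phosphorylated Krt18, was 1.68-fold higher (limma adjusted p = 0.0333) and lost its call under 6 of 11. In the other direction, at an unadjusted p under 0.05, 1 member was higher in Reg4+ DCS cells, Rchy1, a ubiquitin ligase that binds Krt8 and Krt18, at 70.2 and 75.0 against 51.7 and 36.7 RPM (limma adjusted p = 0.0607). By edgeR 1 member was called higher in Reg4+ DCS cells, as were 1393 of the 10200 genes tested that way.

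Genes with the most similar profile over the 4 libraries were sought among 3229 tested genes with a mean of at least 50 RPM, by the Euclidean distance between log2(RPM + 1) values centred on the mean of each gene. Nearest to Krt7 were Foxa3, a forkhead transcription factor (distance 0.184), and Wars, a tryptophan tRNA synthetase (0.193). Nearest to Krt18 were Llgl2, a polarity protein (0.00999), and Plk2 (0.0437), and nearest to Krt19 were Hcfc1r1 (0.0237) and Tmsb4x, an actin binding peptide (0.0276). Krt8 had Higd2a (0.0763) and Ube2r2 (0.0801). Nearest to Krt20 were Gm10845 (0.797) and Gsdmc4, a gasdermin (0.810), and to Krt23 Gdf15 (0.884) and Sult1a1 (0.973). No gene of this abundance lay as near to Krt20 or Krt23 as to the others. This distance tends to be larger for genes with widely spread values, and genes as low as Krt20 and Krt23 were not searched. The larger distances therefore say nothing particular about these 2 keratins. With 4 libraries these distances are descriptions.

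**Figure D5:**
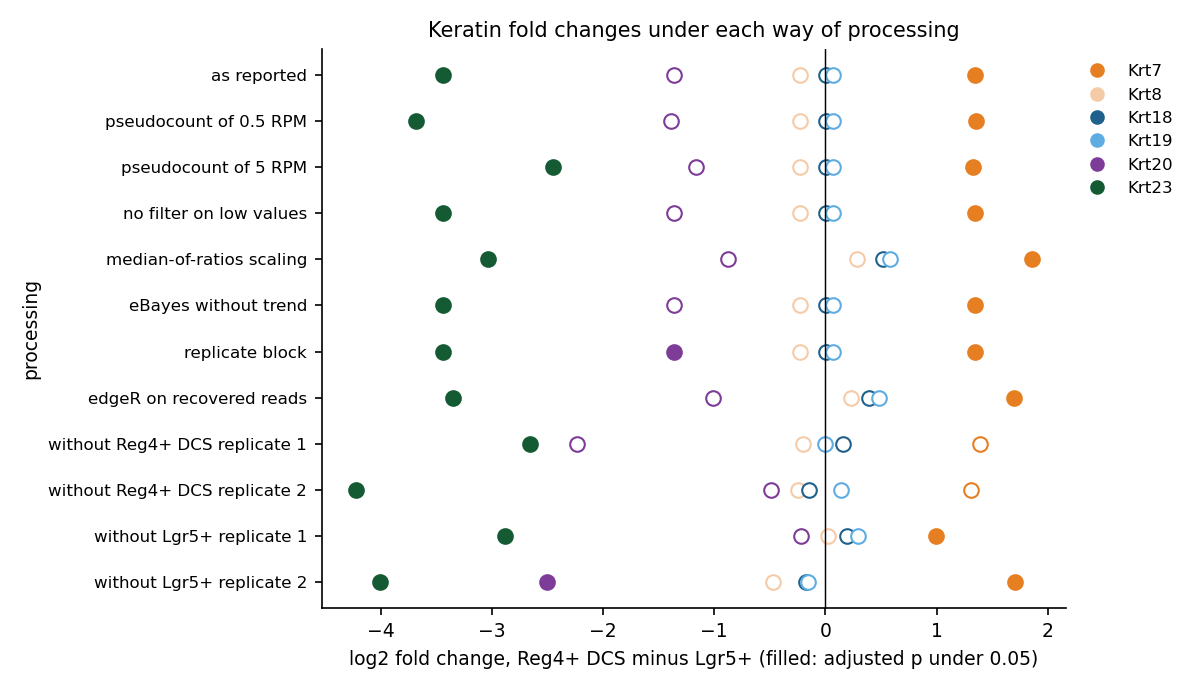
Log2 fold change of the 6 keratins (Reg4+ DCS minus Lgr5+) as reported and under 11 alternatives, with filled symbols at an adjusted p under 0.05. Krt23 is filled in every row, Krt7 in all but those without a Reg4+ DCS library, Krt20 in 2 rows, and Krt8, Krt18 and Krt19 in none.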

How the data were processed

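Per the labels' protocols, sorted cells were taken up in Trizol and total RNA was made into CEL-seq libraries, and BWA 0.6.2-r126 and mm10 are named in the submitters' processing notes. The sources used here do not state the counting, the annotation or any use of molecular identifiers. The authors deposited 1 table of RPM, whose 4 columns each sum to 1000000. In the Lgr5+ columns 100% of values were whole reads within 0.01 reads, and the Reg4+ DCS columns split into 2 parts uniquely for at least 99.1% of entries. The reads recovered for the parts did not add up exactly. In replicate 1 they summed to 5673853 and 1839418, against totals of 5523304 and 1890960 given by the steps. The entries behind this gap were not traced, and the edgeR alternative used these reads.

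The main test was limma 3.58.1, run in R 4.3.3 on log2(RPM + 1) (group as the only term, eBayes with trend) for entries with at least 5 RPM in at least 2 libraries, with calls at an adjusted p (Benjamini-Hochberg, over all entries tested) under 0.05. The limma p-values rest on the spread within 2 pairs of libraries, which eBayes draws toward a trend over all tested genes. They thus borrow much from other genes. Where 1 library was left out, the lone library of its group was assumed to vary like the other pair. The spread of that pair was again drawn toward the trend. A p-value from such a fit can thus be small for a gene whose own pair differs widely, as for Krt20 without Lgr5+ replicate 2. The separation into parts and the limma fit were also run on simulated data, whose outcome is not given here. The simulated separation was scored only on entries with a single solution, so it does not address the gap in summed reads. Alternatives included edgeR 4.0.16 on the recovered reads, which called 1393 and 1358 genes higher in Reg4+ DCS and Lgr5+ cells. Of 451 windows of 50 bases in the last 500 bases of each transcript, at most 9 (Krt7) occurred in an annotated transcript of another gene, 5 of Krt18 and 0 of the other 4.

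Named genes were the members, the other tested keratins, up to 3 called genes per list and direction with the largest change, the 2 nearest profiles per member and both sort markers. Car4, Slc26a3, Aqp8, Dclk1, Pou2f3, Dsp, Lmna, Vim, Rchy1, Guca2a, Ceacam1, Ceacam20, Emp1, Fabp2, Slc37a2, Rgmb, Smoc2, Slc12a2, Ptprc, Ptpn6, Ltc4s and keratins below the filter were chosen after their values were seen. Members and lists were chosen with earlier results of these data known.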

Additional observations from a re-analysis of the deposited data

How the results depend on the processing

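The call of Krt23 kept its direction and its side of the threshold under all 11 alternatives (log2 fold change from -4.23 to -2.46), and that of Krt7 under 9 (0.99 to 1.86). The count of members higher in Reg4+ DCS cells ranged from 0 to 1 without 1 library, and the count higher in Lgr5+ cells from 1 to 2. With the replicate number as a block the latter was 2, as Krt20 passed (adjusted p = 0.000794), and no other member changed its call under the block. The labels do not say that a number marks a shared round. Deviations of same-numbered libraries from their group means correlated at r = 0.212 across 10183 genes, which 2 pairs cannot settle.

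Over all tested genes the counts (731 higher in Reg4+ DCS, 2744 in Lgr5+) became 1591 and 1297 under median-of-ratios scaling and 1393 and 1358 by edgeR, and ranged from 349 to 706 and from 1060 to 2288 without 1 library. Of the keratins that were never called, 4 changed sign: Krt8 was 0.28 under median-of-ratios scaling and 0.23 by edgeR, and without 1 library Krt8 ranged from -0.48 to 0.026, Krt18 from -0.18 to 0.19, Krt19 from -0.15 to 0.29 and Krt10 from -0.15 to 0.36. The cause was not tested. The type II to type I difference was 1.37 without Krt8, which leaves Krt7 alone as type II. Counts for the 4 lists of related genes moved by over 1.5 times under several settings: those higher in Lgr5+ cells ranged from 0 to 7 for filament linkers, 1 to 5 for keratin binding genes, 1 to 4 for other intermediate filaments and 0 to 4 for other keratins, and those higher in Reg4+ DCS cells from 0 to 2 for keratin binding genes and from 0 to 1 for other intermediate filaments. With 8 and 28 reads, the depth limits the level of Krt23 in Reg4+ DCS cells.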
